A study of Mus musculus with 4 samples.

Results

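The genes described here are 44 genes of the DNA replication machinery, taken by name from the 21889 genes listed for 4 mouse leukaemia cell lines. All 44 were found, and all 44 had a mean of 1 FPKM or more (fragments per kilobase of transcript, scaled to the depth of the library), the level that 10066 genes reached and at which a gene is called expressed below. RNA was sequenced from acute myeloid leukaemia lines of BXH-2 mice, a strain in which a retrovirus inherited in the genome gives rise to myeloid leukaemia. The resistant lines were B117H, labelled highly resistant to cytarabine (Ara-C) with an IC50 of about 160 µg/ml, and B140H, labelled the same with about 60 µg/ml. B117H was made from B117P, labelled sensitive with an IC50 of about 150 ng/ml, and B140H from B140P, labelled sensitive with about 110 ng/ml. A resistant line and its parent are called a lineage here. The labels state for every line, parents included, an exposure to rising Ara-C and a passage without the drug, and they do not say whether a line is a single clone. Each line has a single library (1 library a line), so the values carry no replicate error and differences within a lineage are given by their size alone.

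A cell copies its genome once per division. In G1, the proteins Cdc6 and Cdt1 load the ring-shaped MCM2-7 helicase onto origins, geminin blocks Cdt1 afterwards, and the kinase Cdc7 with its activator Dbf4 and the GINS complex turn the ring into a moving helicase. Behind it, polymerase alpha with primase starts each strand, RFC loads the PCNA clamp, polymerases epsilon and delta extend the strands, RPA covers single-stranded DNA, and Fen1, Dna2, Lig1 and RNase H2 remove primers and ribonucleotides and seal nicks. Ara-C enters this machinery as a nucleotide that is built into DNA and slows its extension. Many of these genes are transcribed before S phase under the control of E2F transcription factors.

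The 300 bases around the gene start, 250 before it and 50 from it on, were read for 34 of the 44 genes from a RefSeq table of the GRCm38.p6 build. Mcm4, Gins1, Gins2, Gins4, Prim2, Pole, Rfc2, Rnaseh2b, Gmnn and Tipin were not found in that table and were not searched. The 34 were searched on both strands for letters known from E2F sites, TTTCCCGC, TTTCGCGC, TTTGCCGC and TTTGGCGC. At least 1 match was found in 14 of the 34 genes, or 41.2%, against 2.60% of all 27025 genes of the table and 5.23% of its 7184 expressed ones. CCAAT, on either strand, was found in 18 of the 34, or 52.9%, against 41.1% of all genes and 43.7% of the expressed ones. A match describes the letters and is neither a site nor a cause. The stretches below are shown because their genes include Mcm7, Rfc3, Pole2 and Gins3, whose levels are among those described next, with further helicase, licensing and lagging-strand genes. They are printed 5′ to 3′ along the gene, and capitals mark the E2F letters on either strand. Genes on the plus strand are Mcm5 (chr8:75109345-75109374), Gins3 (chr8:95633507-95633536), Lig1 (chr7:13278841-13278870), Cdc6 (chr11:98908002-98908031) and Cdt1 (chr8:122568035-122568064). Genes on the minus strand are Mcm3 (chr1:20820275-20820304), Mcm6 (chr1:128359706-128359825), Mcm7 (chr5:138172030-138172059), Pola1 (chrX:93632275-93632304), Pole2 (chr12:69228162-69228191) and Rfc3 (chr5:151651200-151651229). In Mcm5 and Mcm6 a match on one strand overlaps a match on the other, which gives the longer runs of capitals.
Mcm3: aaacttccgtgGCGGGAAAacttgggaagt
Mcm5: gcgccaagaacTTTCGCGCCAAAacgtcca
Mcm6: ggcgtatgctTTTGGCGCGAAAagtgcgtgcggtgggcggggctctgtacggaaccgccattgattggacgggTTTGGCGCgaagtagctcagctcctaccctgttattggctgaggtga
Mcm7: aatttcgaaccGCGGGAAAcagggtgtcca
Gins3: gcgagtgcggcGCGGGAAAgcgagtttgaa
Pola1: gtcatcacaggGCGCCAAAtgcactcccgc
Pole2: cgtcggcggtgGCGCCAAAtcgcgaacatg
Rfc3: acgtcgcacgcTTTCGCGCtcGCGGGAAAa
Lig1: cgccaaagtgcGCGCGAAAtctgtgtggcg
Cdc6: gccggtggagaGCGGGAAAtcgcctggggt
Cdt1: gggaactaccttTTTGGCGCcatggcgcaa

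The replication genes were well expressed in every line. Their median level was 44.03 FPKM in B117H and 36.8 in B117P, and 49.2 in B140H and 40.8 in B140P, above the level of 79.1% to 83.7% of expressed genes. Pcna, which encodes the sliding clamp, had the highest level in each line, with 321 FPKM in B117H and 280 in B117P, and 372 in B140H and 285 in B140P. The lowest member was Pold4, the smallest subunit of polymerase delta, at 11.9 FPKM in B117H. In the other lines it was Gins3, a GINS subunit, at 8.51 FPKM in B117P, 11.3 in B140H and 8.31 in B140P. The spacing of the lowest values put the depth at 19850000 fragments in B117H and 22100000 in B117P, and at 24950000 in B140H and 19300000 in B140P. On that estimate, and with transcript lengths from GENCODE, the least covered value, Pold4 in B117H, rested on 153 fragments and the median value on 1814. The median half-width of the 95% counting interval of a log2 ratio was 0.10, and such intervals cover counting error only. Ptprc, a gene of all leukocytes, lay between 50.1 and 89.0 FPKM. Myeloid markers differed by lineage. Mpo had 473 FPKM in B117H and 1450 in B117P, and 0.913 in B140H and 10.4 in B140P, Itgam lay between 1.53 and 8.86, Cd33 between 8.58 and 120, and Kit and Cd34 were at or near 0 in both B140 lines. The T cell genes Cd3e, Cd3g and Cd4 and the epithelial genes Epcam and Krt8 were at 0 in all 4 lines, and the B cell gene Cd79a was at 16.1 FPKM in B140H and 6.63 in B140P.

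**Figure D1:**
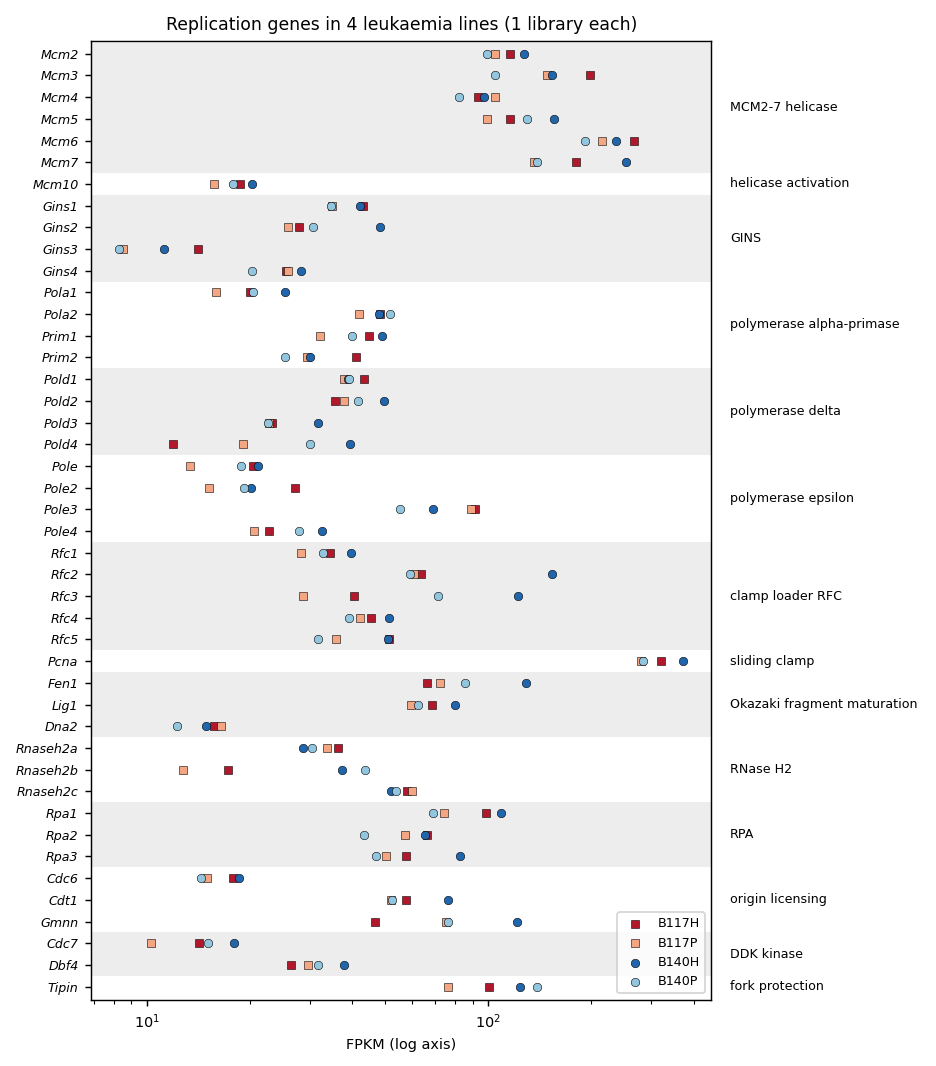
Level of each of the 44 replication genes in the 4 lines, in FPKM on a log axis, with 1 point per library and genes grouped by complex. Pcna lies highest in every line, and Gins3 or Pold4 lowest. B140H stands apart from the other lines in Rfc2 and Gmnn, and both B140 lines stand above both B117 lines in Rfc3, Rnaseh2b and Pold4.

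Most replication genes were somewhat higher in each resistant line than in its parent, and few by much. In B117H, 35 of the 44 genes were higher than in B117P by any amount, beside 46.3% of all expressed genes. The median log2 ratio of FPKM + 1 was 0.20 over the 44 genes (from -0.69 to 0.79), against -0.03 over all expressed genes and -0.03 over the 5800 at or above the lowest member. In B140H, 38 of the 44 were higher than in B140P, beside 63% of all expressed genes. There the median was 0.31 (from -0.22 to 1.37), against 0.11 over all expressed genes and 0.18 over the 5800. Relative to that shift of 0.11, 37 of the 44 were higher with a median of 0.20, and after quantile normalization 33 were, with a median of 0.10 against 0.00 for all expressed genes. A change in the share of cells in S phase and a change in RNA per cell cannot be told apart in such libraries.

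Past a 2-fold threshold, 0 genes were higher in B117H (1.41% of all expressed genes) and 0 were lower (3.21%). In B140H, 1 gene was higher, Rfc2 (2.31% of all), and 0 were lower (1.63%). Past 1.5-fold, Gins3 and Pole2 were higher in B117H, 2 of 44 beside 4.66% of all expressed genes, and Pold4 and Gmnn were lower, 2 of 44 beside 9.16%. In B140H, 9 of 44 were higher past 1.5-fold, beside 8.39% of all expressed genes: Mcm7, Gins2, Rfc2, Rfc3, Rfc5, Fen1, Rpa1, Rpa3 and Gmnn. In that comparison 0 of 44 were lower past 1.5-fold (4.68% of all). The threshold fell between Fen1 at a log2 ratio of 0.59 and Rpa2 at 0.58, and the 9 became 4 with the libraries centred, 2 after quantile normalization and 1 less the neighbours described below. Past 1.5-fold, 0 of the 44 genes differed the same way in both lineages, and Gmnn differed in opposite directions. With only 2 genes higher and 2 lower in B117H, few could be shared. The same count was not made over all expressed genes, so the 0 only describes these genes.

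By direction alone, 30 of the 44 genes were higher in both resistant lines, beside 26.5% of all expressed genes, and 1, Rnaseh2c, was lower in both, beside 16.3%. Across the 44 genes the Pearson correlation between the ratios in B117H and those in B140H was -0.12 and the Spearman correlation -0.07, given as a description, beside -0.10 and -0.14 across all 10066 expressed genes. Rfc2, with the highest ratio in the B140 lineage, was at 0.07 in the B117 lineage, and Pole2, with the highest ratio in the B117 lineage, was at 0.06 in the B140 lineage.

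**Figure D2:**
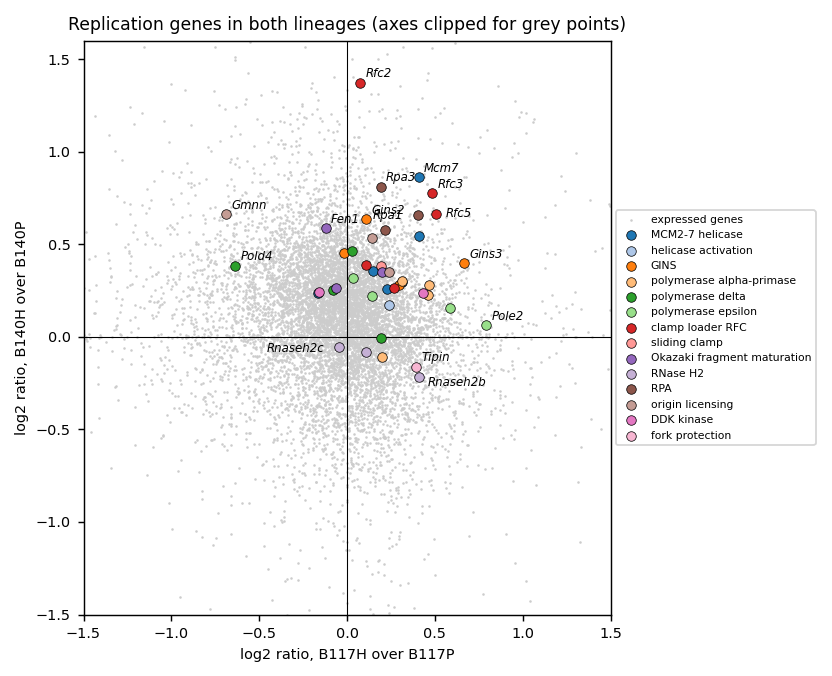
Log2 ratio of FPKM + 1 of each replication gene in B117H over B117P (horizontal) and B140H over B140P (vertical), coloured by complex, with all expressed genes in grey and some of them beyond the axes. Of the 44 genes, 30 lie in the upper right. Rfc2 lies highest at 1.37, Pole2 farthest right at 0.79, and Gmnn, Pold4 and Fen1 are among those on the upper left.

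The helicase subunits were among the most abundant of the set. Mcm7, one of the 6 ring subunits, had 181 FPKM in B117H and 136 in B117P, and 253 in B140H and 139 in B140P. Both resistant lines were above both parents, with a log2 ratio of 0.41 in the B117 lineage and 0.86 in the B140 lineage. The B140H level was 1.83 times that of B140P, with a 95% Clopper-Pearson counting interval, on estimated fragments, of 1.77 to 1.88. Its listed span, chr5:138605817-138613090 in the mm9 build, holds the microRNA genes Mir106b, Mir25 and Mir93, which were listed at 0 in every line. Mcm6, the subunit with the highest level in B117H, B117P and B140P, had 267 FPKM in B117H and 215 in B117P, and 236 in B140H and 192 in B140P. Mcm4, with the lowest level in 3 lines, had 93.4 FPKM in B117H and 105 in B117P, and 97.0 in B140H and 82.2 in B140P. Mcm5, the lowest in B117P, had 116 FPKM in B117H and 98.9 in B117P, and 156 in B140H and 129.97 in B140P. Mcm4 was the one ring subunit lower in B117H, while Mcm2, Mcm3 and Mcm5 were higher in both resistant lines with log2 ratios between 0.15 and 0.55. The median of the 6 subunits was 0.27 in the B117 lineage and 0.33 in the B140 lineage, and after quantile normalization it was 0.41 and 0.03, with 3 of the 6 still higher in B140H. Mcm10, which helps to activate the loaded helicase, had log2 ratios of 0.24 and 0.17.

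The 4 GINS genes encode a complex that joins the ring at origin firing. Gins3 (chr8:98157459-98168959) had 14.1 FPKM in B117H and 8.51 in B117P, and 11.3 in B140H and 8.31 in B140P. It was higher in both resistant lines, 1.65 times in the B117 lineage (counting interval 1.43 to 1.92) and 1.36 times in the B140 lineage (1.16 to 1.59). Gins1 had 43.1 FPKM in B117H and 34.9 in B117P, and 42.2 in B140H and 34.6 in B140P, the highest of the complex in all lines but B140H. Gins2 led there, with 48.1 FPKM in B140H and 30.6 in B140P, and 27.99 in B117H and 25.9 in B117P, so its difference lay mostly in the B140 lineage. Gins2 and Gse1 were listed with the same span and with separate levels. Gse1 had 3.41 FPKM in B117H and 5.94 in B117P, and 13.7 in B140H and 14.5 in B140P. Whether exons of these genes overlap was not checked. Gins4 had log2 ratios of -0.02 in the B117 lineage and 0.45 in the B140 lineage.

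Polymerase alpha and primase make the RNA-DNA primers. The catalytic subunit Pola1, the lowest of the complex, had 20.1 FPKM in B117H and 15.96 in B117P, and 25.4 in B140H and 20.4 in B140P. The regulatory subunit Pola2 had 48.1 FPKM in B117H and 41.8 in B117P, and 47.9 in B140H and 51.7 in B140P. Pola1 was thus higher in both resistant lines and Pola2 in B117H only. Prim1, the catalytic subunit of primase and the highest of the complex in B140H, had 44.8 FPKM in B117H and 32.1 in B117P, and 48.8 in B140H and 40.005 in B140P. The primase subunits Prim1 and Prim2 had log2 ratios of 0.47 and 0.46 in the B117 lineage, and 0.28 and 0.23 in the B140 lineage. The median of the 4 genes was 0.39 in the B117 lineage and 0.25 in the B140 lineage, and less the median of the chromosomal neighbours, described below, it was 0.28 and 0.04.

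Polymerase delta, which extends the lagging strand, had a subunit that lay on opposite sides of its parent in the 2 resistant lines. Pold4 (chr19:4231899-4233634) had 11.9 FPKM in B117H and 19.1 in B117P, and 39.5 in B140H and 30.04 in B140P. B117H was the lowest line and B140H the highest, with log2 ratios of -0.64 in the B117 lineage and 0.38 in the B140 lineage. The fold was 0.625 in the B117 lineage (counting interval 0.510 to 0.766) and 1.31 in the B140 lineage (1.15 to 1.496). The catalytic subunit Pold1 had 43.3 FPKM in B117H and 37.8 in B117P, and 39.0 in B140H and 39.1 in B140P, a much narrower range. Pold4 per Pold1, both per length, was therefore 0.276 in B117H and 0.506 in B117P, and 1.01 in B140H and 0.768 in B140P. The accessory subunit Pold2, the highest of the complex in both B140 lines, had 35.6 FPKM in B117H and 37.8 in B117P, and 49.7 in B140H and 41.5 in B140P. Pold3, the lowest there, had 23.3 FPKM in B117H and 22.9 in B117P, and 31.7 in B140H and 22.7 in B140P. Their log2 ratios were -0.08 and 0.03 in the B117 lineage and 0.25 and 0.47 in the B140 lineage.

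Polymerase epsilon extends the leading strand. Pole2 (chr12:70302766-70329177), its second subunit, had 27.1 FPKM in B117H and 15.2 in B117P, and 20.2 in B140H and 19.3 in B140P. B117H was above the other 3 lines, by 1.78 times over B117P (counting interval 1.599 to 1.98), while the interval in the B140 lineage included 1 (0.944 to 1.16). The catalytic subunit Pole had 20.5 FPKM in B117H and 13.4 in B117P, and 21.2 in B140H and 18.9 in B140P, so B117P was the low line. Pole3, a histone-fold subunit with the highest level of the complex, had 91.6 FPKM in B117H and 89.3 in B117P, and 69.0 in B140H and 55.1 in B140P. Pole4, its partner, had log2 ratios of 0.14 and 0.22. The 4 genes were all higher in each resistant line as deposited, and 3 of 4 in B140H once the libraries were centred. After quantile normalization 3 of 4 were higher in B140H, with a median of 0.03. Less the neighbours described below, 2 of 4 were higher in B140H, with a median of 0.10.

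The clamp loader RFC, a ring of 5 subunits that opens PCNA and closes it around DNA, held the largest difference of the set between a resistant line and its parent, as deposited. Rfc2 (chr5:135058560-135074198) had 63.7 FPKM in B117H and 60.5 in B117P, and 154 in B140H and 58.9 in B140P. B140H alone stood high, at 2.62 times its parent with a counting interval of 2.54 to 2.70, and the other 3 lines lay between 58.9 and 63.7 FPKM. Rfc3 (chr5:152445399-152453783) had 40.5 FPKM in B117H and 28.7 in B117P, and 123 in B140H and 71.3 in B140P. Each resistant line was above its parent, and both B140 lines were above both B117 lines. Rfc5 had 51.3 FPKM in B117H and 35.8 in B117P, and 50.8 in B140H and 31.7 in B140P, alike in the 2 lineages. Rfc1, the large subunit and the lowest of the complex in 3 lines, had 34.3 FPKM in B117H and 28.3 in B117P, and 39.6 in B140H and 32.8 in B140P. Rfc4 had log2 ratios of 0.11 and 0.39, and its listed span overlaps Eif4a2. All 5 were higher in both resistant lines, as deposited, centred, quantile normalized and less their neighbours, with medians as deposited of 0.27 in the B117 lineage and 0.66 in the B140 lineage. Rfc2 per Rfc4, both per length, was 1.40 in B117H and 1.44 in B117P, and 3.002 in B140H and 1.51 in B140P. The ratio of these messages was thus highest in B140H, and protein was not measured. Pcna itself had log2 ratios of 0.20 and 0.38, and -0.01 in the B140 lineage after quantile normalization.

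On the lagging strand, Fen1, the flap endonuclease, had 66.2 FPKM in B117H and 72.2 in B117P, and 129 in B140H and 85.3 in B140P. It was slightly lower in B117H and higher in B140H, with log2 ratios of -0.12 and 0.59. Lig1, the ligase that seals the fragments, had 68.5 FPKM in B117H and 59.6 in B117P, and 80.1 in B140H and 62.5 in B140P. Its log2 ratios were 0.20 and 0.35, and its span overlaps 6330408A02Rik. Dna2, a nuclease and helicase that trims long flaps, had 15.8 FPKM in B117H and 16.5 in B117P, and 14.9 in B140H and 12.3 in B140P, the lowest of these enzymes. RNase H2 was the one complex with no subunit higher in B140H than in B140P. Its catalytic subunit Rnaseh2a had 36.3 FPKM in B117H and 33.6 in B117P, and 28.8 in B140H and 30.5 in B140P. Rnaseh2b (chr14:62950942-62991829) had 17.3 FPKM in B117H and 12.8 in B117P, and 37.3 in B140H and 43.6 in B140P. Rnaseh2c, the most abundant of the 3, had 57.9 FPKM in B117H and 59.9 in B117P, and 51.8 in B140H and 53.8 in B140P. Their log2 ratios in the B140 lineage lay between -0.22 and -0.05, and between -0.41 and -0.26 after quantile normalization. Less its neighbours, Rnaseh2b alone turned positive there, at 0.18.

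RPA, the trimer that covers single-stranded DNA, was higher in both resistant lines in all 3 subunits and under each scaling. Rpa1, the large subunit, had 98.4 FPKM in B117H and 74.1 in B117P, and 109 in B140H and 68.8 in B140P. Rpa3, the smallest, had 57.6 FPKM in B117H and 50.3 in B117P, and 82.9 in B140H and 46.8 in B140P. For both genes the 2 resistant lines were the highest lines. Rpa2 had 66.4 FPKM in B117H and 57.0 in B117P, and 65.3 in B140H and 43.4 in B140P. The log2 ratios of the 3 genes lay between 0.19 and 0.40 in the B117 lineage and between 0.58 and 0.81 in the B140 lineage.

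Among the licensing genes, geminin (Gmnn, chr13:24843714-24853806), the inhibitor of Cdt1, had 46.5 FPKM in B117H and 75.4 in B117P, and 121 in B140H and 76.3 in B140P. The 2 parents were alike and the resistant lines lay on either side of them, at 0.616 times the parent in B117H (counting interval 0.569 to 0.667) and 1.59 times in B140H (1.497 to 1.69). Cdt1 had 57.5 FPKM in B117H and 52.1 in B117P, and 76.5 in B140H and 52.5 in B140P. Cdt1 per geminin, both per length, was 1.24 in B117H and 0.690 in B117P, and 0.630 in B140H and 0.687 in B140P, so B117H was the one line with more Cdt1 than geminin message. Cdc6, an ATPase of loading with the lowest level of the 3, had 17.9 FPKM in B117H and 15.02 in B117P, and 18.7 in B140H and 14.4 in B140P. Of the kinase that fires origins, Cdc7 had 14.3 FPKM in B117H and 10.3 in B117P, and 18.0 in B140H and 15.1 in B140P. Its activator Dbf4 had 26.4 FPKM in B117H and 29.6 in B117P, and 37.7 in B140H and 31.7 in B140P. Dbf4 per Cdc7 was thus 1.85 in B117H and 2.87 in B117P, and 2.09 in B140H and 2.10 in B140P. Tipin, which with Timeless steadies stalled forks, had 100.3 FPKM in B117H and 76.3 in B117P, and 124 in B140H and 139 in B140P. Both B140 lines were above both B117 lines, and the resistant line was the higher one in the B117 lineage only, unless the neighbours are subtracted, which puts the B140 lineage at 0.19.

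Several of these differences were shared by the genes next to them on the chromosome. For each gene the median log2 ratio of its 25 nearest expressed genes was taken. In B140H over B140P that median was 0.80 around Rfc2, with 24 of the 25 higher and 7 past 2-fold, and 0.76 around Mcm7, with 24 higher and 9 past 2-fold. Both genes lie on chromosome 5, 3.54 Mb apart by their midpoints, and share 0 of these neighbours. Of the 44 genes, 8 lie on that chromosome, and Rfc3 and Rfc5, the other 2 past 1.5-fold among them, had neighbour medians of 0.23 and 0.25. Less their neighbours, Rfc2 was at 0.57, Mcm7 at 0.10, Rfc3 at 0.55 and Rfc5 at 0.41. In B117H over B117P the median around Gmnn was -0.80, with 2 of 25 higher, and less its neighbours Gmnn was at 0.11. Around Mcm4 it was -0.57 and around Rfc4 -0.54, both on chromosome 16 and both with 2 of 25 higher, while Mcm4 itself was at -0.17 and Rfc4 at 0.11. Around Pole2 it was 0.48, with 23 of 25 higher, and less its neighbours Pole2 was at 0.31. Pold4 and Gins3 stood apart from their neighbours in that lineage, whose medians were -0.04 and 0.01.

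Across the 44 genes, the ratio of a gene and the median of its neighbours had a Pearson correlation of 0.58 in the B117 lineage and 0.64 in the B140 lineage, and Spearman correlations of 0.42 and 0.31. Across the 10061 expressed genes with enough neighbours the Pearson values were 0.27 and 0.26 and the Spearman values 0.36 and 0.36. Neighbouring genes share windows, so these describe the genes and are not tested. With the neighbours subtracted, 38 of the 44 genes were higher in B117H, with a median of 0.25 (51.3% of all expressed genes, median 0.01). In B140H 37 were, with a median of 0.20 (49.1%, median -0.01). The median of the set was thus 0.25 beside 0.20 as deposited in B117H, and 0.20 beside 0.31 in B140H. What the shared regional differences rest on was not tested.

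**Figure D3:**
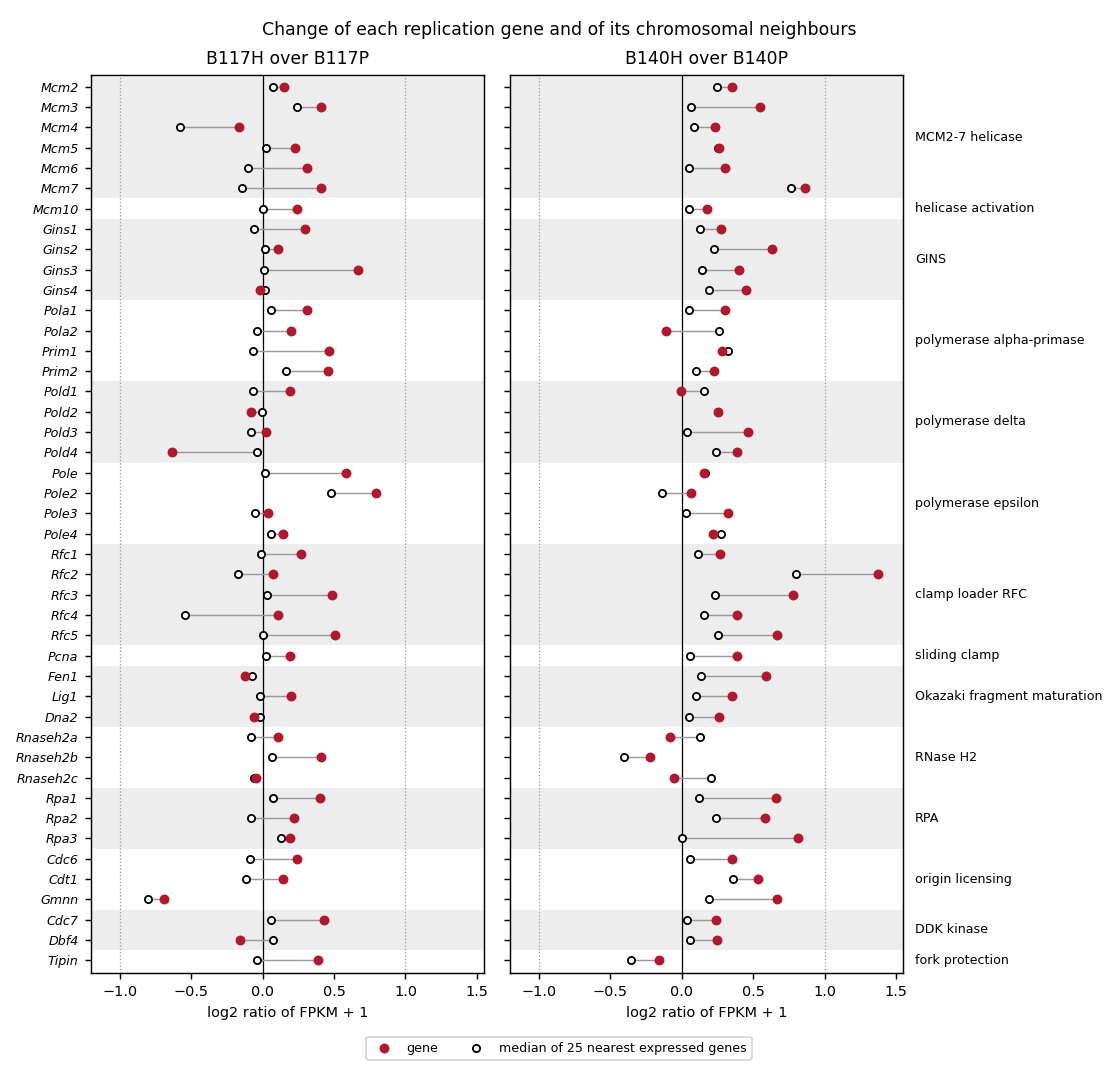
Log2 ratio of FPKM + 1 of each replication gene (filled) and the median of its 25 nearest expressed genes (open), for B117H over B117P on the left and B140H over B140P on the right, with dotted lines at 2-fold. Rfc2 alone passes a 2-fold line. The neighbours of Rfc2 and Mcm7 on the right and of Gmnn, Mcm4 and Rfc4 on the left lie far from 0.

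The lineages were also set against each other. In B140H over B117H, 5 of the 44 genes were higher past 2-fold, namely Pold4, Rfc2, Rfc3, Rnaseh2b and Gmnn, beside 9.69% of all expressed genes, and 0 were lower (9.19%). In B140P over B117P, 2 were higher, Rfc3 and Rnaseh2b, beside 5.83%, and 0 were lower (10.8%). Rfc3 was 3.03 times higher between the resistant lines (counting interval 2.83 to 3.24) and 2.48 times between the parents (2.29 to 2.70). Rnaseh2b was 2.15 times higher between the resistant lines (1.94 to 2.39) and 3.40 times between the parents (3.05 to 3.81). These comparisons use the same 4 libraries as those within the lineages. The neighbours of Rfc3 had a median log2 ratio of 1.38 between the parents, 22 of 25 being higher, close to its own 1.28. Those of Rnaseh2b had 1.22, with 24 of 25 higher, against its own 1.69. The listed spans of 6 genes, none of them among the 44, differed between the lineages, so the 2 lineages may stand on separate scales, a limit on every level set across them.

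A fit over all 10066 expressed genes with limma, on log2(FPKM + 1) with lineage and Ara-C class as terms, had 1 residual degree of freedom. For the resistant over the sensitive lines it called 0 of the 44 genes at an adjusted p of 0.05, as it did 0% of all expressed genes. Without adjustment 3 of the 44 had p under 0.05, beside 2.17% of all (218 genes). They were Mcm7 with a coefficient of 0.64 (SE 0.26, limma adjusted p = 0.9995), Rfc3 with 0.63 (SE 0.24, limma adjusted p = 0.9995) and Rfc5 with 0.59 (SE 0.24, limma adjusted p = 0.9995), each higher in 2 of 2 resistant lines. This coefficient is the mean of the 2 lineage ratios, so it repeats the ratios given above and is no separate result. It was positive for 41 of the 44, with a median of 0.27, against 0.04 over all expressed genes. After quantile normalization it was positive for 37, with a median of 0.19, against 0.01 over all expressed genes. The share of positive coefficients over all expressed genes was not counted. For the B140 lines over the B117 lines the same fit called 2 of the 44 genes, both higher. Beside that, 4.12% of all expressed genes were called higher and 6.83% lower. The 2 libraries of a lineage are a parent and the line made from it, not independent samples. The p-values of this contrast therefore describe these lines only. Rfc3 had a coefficient of 1.43 (SE 0.24, limma adjusted p = 0.0192) and Rnaseh2b one of 1.38 (SE 0.26, limma adjusted p = 0.0283), each higher in 2 of 2 lines. Pold4 followed with 1.14 (SE 0.31, limma adjusted p = 0.0817). In this contrast a fit without the block means one without Ara-C class, with lineage kept. In fits without the block and with any 1 library left out neither gene was called, at adjusted p between 0.0864 and 0.292 for Rfc3 and between 0.0958 and 0.146 for Rnaseh2b in limma. Over all alternatives the limma adjusted p ran from 0.0192 to 0.317 for Rfc3 and from 0.0221 to 0.417 for Rnaseh2b, the highest when low genes were kept in. Without the block and with all 4 libraries limma gave an adjusted p of 0.0604 for Rfc3 and 0.0221 for Rnaseh2b, and after quantile normalization 0.0689 for Rnaseh2b.

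The other 10 lists of genes that work with this machinery were described by their medians. The origin recognition complex, which marks origins, had 0 of 6 genes past 2-fold, with medians of 0.09 in both lineages, and -0.02 in the B140 lineage once centred. Other initiation and fork factors had medians of 0.01 in the B117 lineage and 0.33 in the B140 lineage, with 0 of 12 past 2-fold. Chromatin assembly genes (0.07 and 0.22, 0 of 11 past 2-fold) and the E2F family with its pocket proteins (0.16 and 0.32, 0 of 13) were higher at the median in both, chromatin assembly reaching -0.04 in the B140 lineage after quantile normalization, while topoisomerases were at 0.05 and -0.13 (0 of 6). Alternative clamp loaders and the checkpoint clamp had 0.03 and 0.17, with 1 of 8 lower past 2-fold in B117H. That gene was Rad1, a subunit of the checkpoint clamp, with 8.02 FPKM in B117H and 23.3 in B117P, and 14.8 in B140H and 12.0 in B140P, and its neighbours had a median of -1.35 in the B117 lineage. Translesion and repair polymerases had 0.08 and 0.13 (-0.0038 in the B140 lineage less the neighbours), with 1 of 10 lower past 2-fold in B117H. It was Poll, a polymerase of end joining. Poll had 7.60 FPKM in B117H and 22.4 in B117P, and 8.34 in B140H and 7.55 in B140P. The neighbours of Poll had a median of -0.82 in the B117 lineage. Mitochondrial replication genes had -0.37 and -0.09, counting Top1mt, which is also among the topoisomerases. In B117H 1 of 7 was lower past 2-fold, Peo1, the mitochondrial helicase. Peo1 had 6.98 FPKM in B117H and 32.1 in B117P, and 8.37 in B140H and 10.97 in B140P. The neighbours of Peo1 had a median of -1.29 in the B117 lineage, and Peo1 and Poll both lie on chromosome 19.

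Genes of the cell cycle were described in the same way. S phase cyclins and kinases had medians of -0.12 in the B117 lineage and 0.33 in the B140 lineage, with 2 of 10 higher at all in B117H and 10 of 10 in B140H, beside the 46.3% and 63% of all expressed genes given above. After quantile normalization 4 and 8 of the 10 were higher. Mitotic genes had -0.16 and 0.35, with 3 of 12 higher in B117H and 12 of 12 in B140H, and 4 and 9 of the 12 after quantile normalization. Ccne1, cyclin E1, had 5.33 FPKM in B117H and 13.9 in B117P, and 30.5 in B140H and 12.3 in B140P, past 2-fold in both lineages and in opposite directions. Skp2, which targets cell-cycle inhibitors for degradation, had 13.0 FPKM in B117H and 34.6 in B117P, and 17.5 in B140H and 13.7 in B140P. The neighbours of Skp2 had a median of -1.40 in the B117 lineage and those of Ccne1 one of 0.00. So in B140H the 44 replication genes, the S phase genes and the mitotic genes were all higher at the median than in B140P. In B117H the 44 replication genes were higher at the median than in B117P, whereas the S phase and mitotic genes were not. That holds for the 44 genes. The other initiation and fork factors had a median of 0.01 in the B117 lineage, with 6 of 12 higher in B117H. The signs of the 6 medians of the replication, S phase and mitotic genes were the same with centred libraries, after quantile normalization and less the neighbours. The S phase median in the B117 lineage was then close to 0, at -0.02 after quantile normalization and -0.03 less the neighbours. The mitotic median there was -0.06 and -0.12 in these settings.

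**Figure D4:**
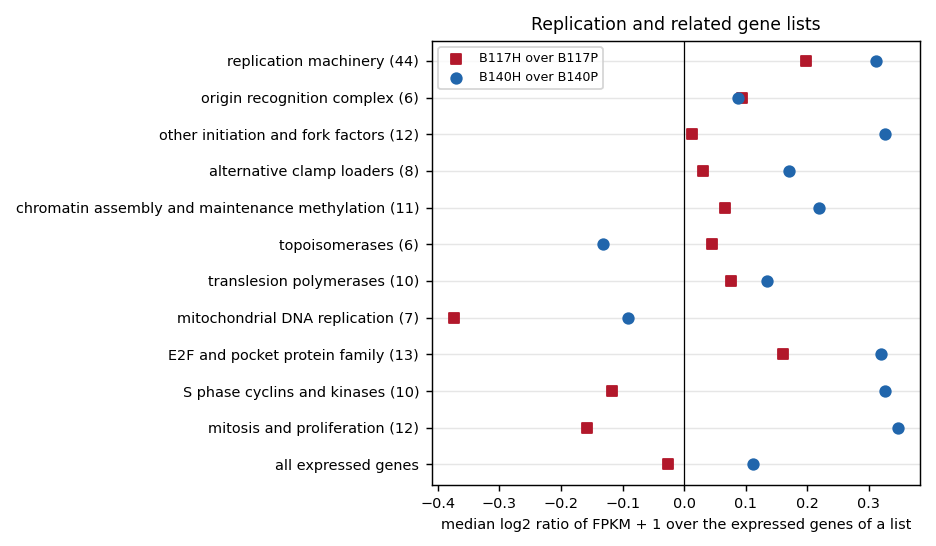
Median log2 ratio of FPKM + 1 of the replication genes, of 10 related lists and of all expressed genes, for B117H over B117P (squares) and B140H over B140P (circles), with the number of expressed genes in brackets. The replication genes lie at 0.20 and 0.31, the mitotic genes at -0.16 and 0.35, and all expressed genes at -0.03 and 0.11.

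The genes with E2F letters in the 300 bases and those without were also compared. The 14 with a match had a median log2 ratio of 0.27 in the B117 lineage and 0.35 in the B140 lineage, against 0.17 and 0.30 for the 20 without. For CCAAT the 18 with a match had 0.25 and 0.37, against 0.14 and 0.29 for the 16 without. Of the genes past 1.5-fold in B117H, Pole2 and Gins3 have the letters shown above. Of those in B140H, Mcm7 and Rfc3 have them, Rfc5, Fen1, Rpa1 and Rpa3 do not in this window, and Gins2, Rfc2 and Gmnn were not searched.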

How the data were processed

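The data are RNA sequencing of 4 cell lines with 1 library each. The authors deposited 1 FPKM value per gene and library, and the submitters' processing notes name TopHat2 2.0.4, Cuffdiff and the mm9 build. FPKM is scaled per library and length, so a few very abundant RNAs can shift all other values. No reads were realigned, and listed starts were read as counted from 0, which 6285 spans of a RefSeq table of 19354 symbols matched against 434.

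The 44 genes and the 10 other lists were chosen with earlier results of these data known. Genes averaging at least 1 FPKM were compared as log2 ratios with a pseudocount of 1, which understates changes of low genes. A gene was called at 2-fold, with counts at 1.5-fold beside it. Within a lineage no test was possible. The fit across both lineages used limma 3.58.1 in R 4.3.3, blocked on lineage, with trend and Benjamini-Hochberg adjustment at 0.05. The block pairs each resistant line with the parent it was made from, as the series design states. For the B140 over the B117 lines, fits with no block dropped Ara-C class and kept lineage. The fit was checked on simulated data. Depth was estimated from low values of single-transcript genes of at least 3 kb, of which 76.5% to 79.4% lay within 0.15 of a whole fragment. The unit of 1 fragment came from those same values, so the shares are no independent check. The fragments of a gene were estimated from its FPKM, that depth and the median length of its protein-coding transcripts in GENCODE. Counting intervals are Clopper-Pearson 95% intervals on these estimated fragments. Their widths therefore depend on the depth and lengths used.

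All 44 genes could be named. Those past 2-fold, those past 1.5-fold in both lineages and the highest and lowest of each complex have their values in all 4 lines, as have further genes named after their values were seen. Of the other lists, genes past 2-fold are named. Alternatives were no filter, a mean of at least 5 FPKM, a pseudocount of 0.1, centred libraries, quantile normalization, subtraction of the median of 25 neighbours, and for limma no trend, no block and leaving out each library. Other steps ran in Python 3.11.15 with scipy 1.17.1, pandas 2.3.3, numpy 2.4.6 and matplotlib 3.10.9.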

Additional observations from a re-analysis of the deposited data

Results flagged for a closer look

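Replication genes whose log2 ratio had opposite signs in the 2 lineages and passed 1.5-fold in at least 1 are given here, with genes of the other lists that did so and passed 2-fold in at least 1. Genes with opposite signs below these sizes are left out. The value is the ratio in the B140 lineage minus that in the B117 lineage. With 1 library per line these differences were not tested. Among the replication genes, geminin differed by 1.35 (0.66 in B140H over B140P and -0.69 in B117H over B117P), Pold4 by 1.02 (0.38 and -0.64) and Fen1 by 0.71 (0.59 and -0.12). Among the related genes, Ccne1 differed by 2.48 (1.24 and -1.24), Rad1 by 1.71 (0.28 and -1.43), Skp2 by 1.67 (0.33 and -1.35) and Poll by 1.57 (0.13 and -1.44). In the B117 lineage the neighbours of Rad1 and Skp2, both on chromosome 15, had medians of -1.35 and -1.40. Those of Poll had -0.82 and those of geminin -0.80. The neighbours of Ccne1, Pold4 and Fen1 had 0.00, -0.04 and -0.08.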

How the results depend on the processing

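In the B117 lineage the median of the 44 genes was 0.29 after quantile normalization, with 4 genes higher and 1 lower past 1.5-fold. Subtraction of the median of 25 neighbours left 1 lower. Leaving out the 4 genes whose neighbours had a median of 0.4 or more in absolute value, an alternative chosen after seeing the data, left 1 higher and 1 lower. In the B140 lineage the median was 0.20 with centred libraries, 0.10 after quantile normalization and 0.20 less the neighbours. The genes higher past 1.5-fold were then 4, 2 and 1. The 1 gene past 2-fold, Rfc2, became 0 less the neighbours, and 0 when the 3 genes with such neighbours, Rfc2 among them, were left out. For the resistant over the sensitive lines limma called 0 of the 44 genes under every alternative, the fit with no replicate block included, which also called 0 of all expressed genes. Over all genes limma called 4 with a minimum mean FPKM of 5, and between 0 and 6 when the block was dropped and 1 library left out. The Rfc3 coefficient, 0.63 over all 4 libraries with and without the block, was then -0.16 without B140H and -0.013 without B117P, against 1.42 without B117H and 1.27 without B140P. Such fits of 3 libraries are unbalanced between the lineages, and within the lineage left whole Rfc3 was at 0.48 without B140H and 0.78 without B117P. For the B140 over the B117 lines limma called 0 of the 44 with no filter, 1 after quantile normalization, 1 with no replicate block and 0 with no block and any 1 library left out. Over all genes it called 1103, against 0 with no filter, 658 with a minimum of 5 and 1188 with no replicate block. With no block and 1 library left out it called 215, 279, 525 and 548 without B140H, B140P, B117P and B117H. With 1 library out, the lone library of a group is assumed to vary like the others. In the contrast of the B140 with the B117 lines, the term dropped in fits with no block was Ara-C class. The cause of these shifts was not tested. Depth alone gives the log2 ratios a median half-width of 0.10, and the spread between replicate libraries was not measured.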
